A study of Mus musculus with 6 samples.

Results

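The second heart field is a pool of pharyngeal progenitor cells that adds muscle to the arterial (outflow) and venous poles of the heart tube. The genes described here are 9 regulators of that field, of the outflow tract and of the non-chamber myocardium: Isl1, Foxc1, Foxc2, Tbx1, Tbx2, Tbx3, Fgf8, Fgf10 and Nr2f2. They were chosen by name, matched to Ensembl IDs through GENCODE M21, and are 9 of the 54532 genes in the deposited table. RNA sequencing was done on heart ventricles of mouse embryos at E12.5 (embryonic day). There were 3 control libraries (genotype CTL) and 3 libraries of a conditional knockout (LSD1-KO, also labelled LSD1CKO). LSD1 is a histone demethylase, encoded by Kdm1a. The labels give neither the Cre line nor the cells in which the gene was deleted, the strain, or whether libraries came from separate embryos. All p-values below thus refer only to the scatter among these samples, and part of that scatter may be technical.

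As background, progenitors of the second heart field express the LIM homeodomain factor Isl1 and, in the anterior part of the field, the T-box factor Tbx1 and the growth factors Fgf8 and Fgf10. These genes fall silent as the cells enter the heart and differentiate, so that ventricular muscle is a tissue in which low levels of them are usual. The forkhead factors Foxc1 and Foxc2 act in the same field, and also in endocardium, vascular endothelium and mesenchyme, while Tbx2 and Tbx3 repress chamber genes in the atrioventricular canal and outflow tract. Nr2f2, which encodes the nuclear receptor COUP-TFII, is known for atrial muscle identity and for venous endothelium.

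Sequence upstream of a RefSeq start site is shown for the members whose control and knockout libraries did not overlap and that have an entry in the RefSeq promoter table (GRCm38.p6, the assembly that mm10 denotes). That table held 5 of the 9 members, and Tbx2, which also did not overlap, had no match. Each run is 200 bases, from 250 to 51 bases before 1 annotated start, written 5′ to 3′ on the strand of the gene, with CG dinucleotides in capitals. The Fgf10 run belongs to an internal start: it lies within the GENCODE span of the gene given below, and the other 3 runs lie outside the spans of their genes.
Foxc1, chr13:31806396-31806595, plus strand: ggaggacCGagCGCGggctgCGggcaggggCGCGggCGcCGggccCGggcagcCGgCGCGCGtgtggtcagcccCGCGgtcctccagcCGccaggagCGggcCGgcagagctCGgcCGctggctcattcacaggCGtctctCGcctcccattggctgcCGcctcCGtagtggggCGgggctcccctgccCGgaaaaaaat
Nr2f2, chr7:70366797-70366996, minus strand: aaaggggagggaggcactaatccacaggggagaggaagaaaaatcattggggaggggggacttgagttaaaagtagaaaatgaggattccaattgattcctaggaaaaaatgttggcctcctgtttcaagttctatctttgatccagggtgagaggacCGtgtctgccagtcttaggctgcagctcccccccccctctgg
Fgf10, chr13:118714449-118714648, plus strand: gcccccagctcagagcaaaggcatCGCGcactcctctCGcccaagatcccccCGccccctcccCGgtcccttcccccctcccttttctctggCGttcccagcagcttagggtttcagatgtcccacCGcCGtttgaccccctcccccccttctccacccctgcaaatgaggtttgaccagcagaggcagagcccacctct
Isl1, chr13:116309739-116309938, minus strand: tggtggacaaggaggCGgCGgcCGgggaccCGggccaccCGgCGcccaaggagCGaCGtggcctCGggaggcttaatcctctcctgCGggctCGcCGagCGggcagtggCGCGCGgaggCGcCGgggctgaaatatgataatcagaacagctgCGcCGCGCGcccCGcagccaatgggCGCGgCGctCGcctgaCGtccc
The 4 stretches differ in CG content. The Isl1 run has 28 CG dinucleotides and the Foxc1 run 26, more than 97.0% and 95.9% of the 32841 promoter windows of that length, whose median is 4. The Fgf10 run has 8 and the Nr2f2 run 1, and 65.0% and 10.9% of windows have fewer. Neither strand of these 4 runs, nor of the windows at both Tbx1 starts, holds the T-box site GGTGTGA, the forkhead site TGTTTAC, the LIM homeodomain core CTAATG or the TATA box letters TATAAA. Those letters are in 2.71%, 2.58%, 5.33% and 9.14% of windows. The windows stop 51 bases before the start, so they cannot show whether a TATA box lies closer to it. The counts are descriptions of sequence and were not related to expression.

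The label check came first. Kdm1a stood at 30, 29.7 and 22.8 FPKM in control replicates 1 to 3 and at 10.7, 11.8 and 11.0 FPKM in knockout replicates 1 to 3. FPKM are fragment counts scaled by gene length and library total. No knockout library reached the lowest control (limma log2 change -1.22, SE 0.11, adjusted p = 0.00274). Depth, as reads recovered from the FPKM values, was 17898946 to 20076028 per library. Knockout replicate 3 had 12.1 FPKM of Xist and no Y-linked RNA, and the other 5 libraries had Y-linked RNA, with 1.11 FPKM of Xist also in knockout replicate 1. Mitochondrially encoded RNA made up 9.03% of the FPKM sum in control replicate 3 and 4.64% to 7.1% in the other libraries.

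The 9 genes differed widely in level. In control ventricles Foxc2 was highest, at a mean of 8.84 ± 1.33 FPKM (SD, n = 3), followed by Foxc1 (6.47 ± 0.607), Tbx2 (3.98 ± 0.173), Nr2f2 (3.38 ± 0.189), Tbx3 (0.974 ± 0.242), Isl1 (0.639 ± 0.18), Fgf8 (0.514 ± 0.31), Fgf10 (0.106 ± 0.031) and Tbx1 (0.0659 ± 0.0362). Control libraries of neighbouring genes in this order overlapped for Tbx3 with Isl1, Isl1 with Fgf8 and Fgf10 with Tbx1, and did not overlap for the other 5 neighbouring pairs. In knockout ventricles the order was Foxc2, Foxc1, Nr2f2, Tbx2, Tbx3, Fgf8, Fgf10, Isl1 and Tbx1, so that Nr2f2 stood above Tbx2 and Isl1 below both growth factors. The knockout libraries of Fgf8, Fgf10 and Isl1 overlapped one another.

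**Figure D1:**
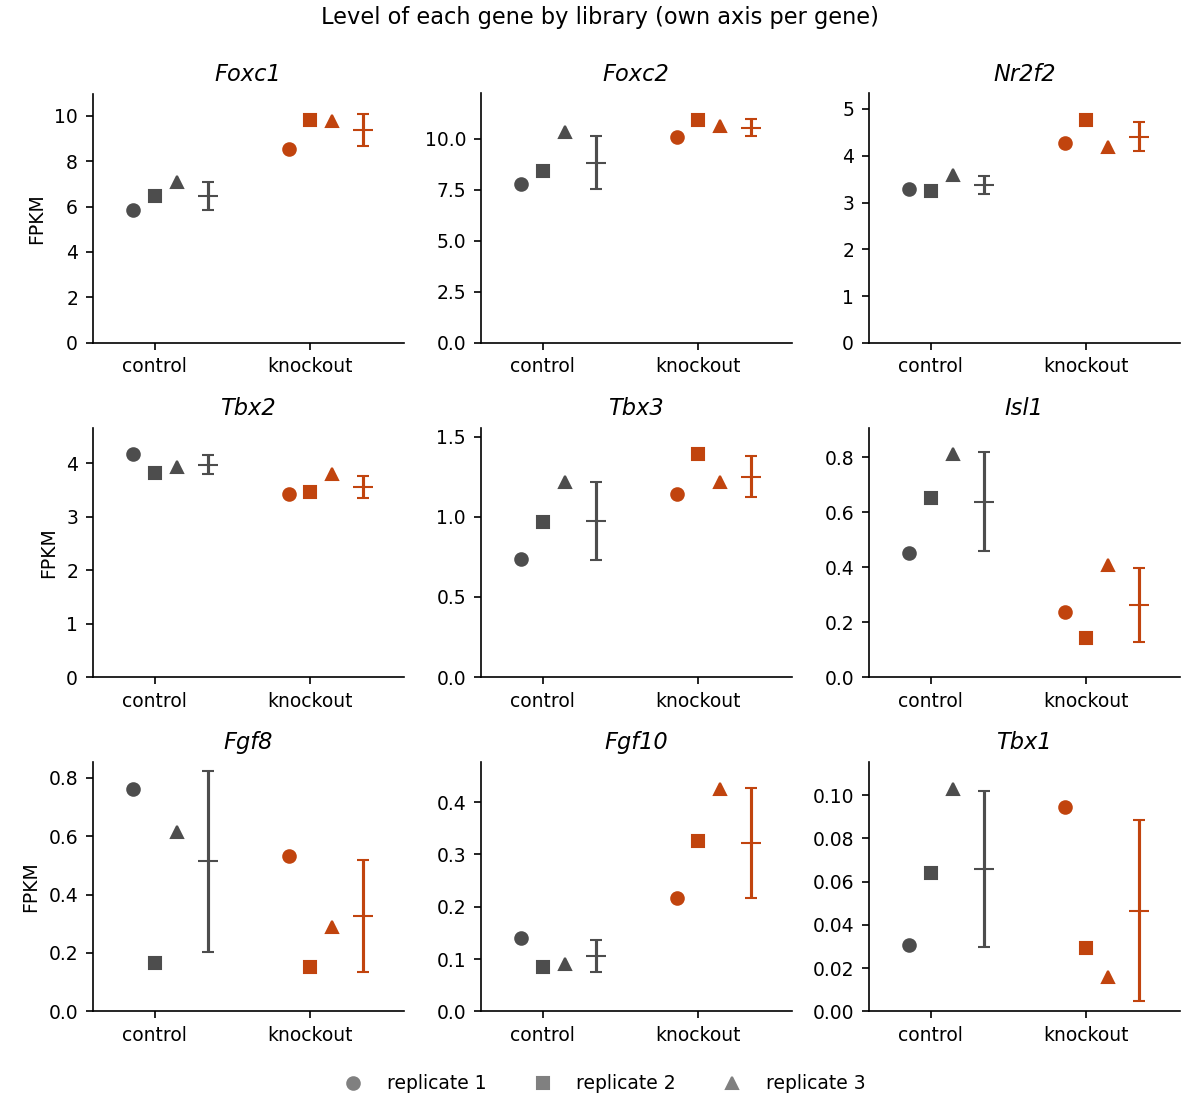
FPKM of the 9 genes (vertical axis, separate scale per gene, starting at 0) in each control (grey) and knockout (orange) library, with replicates 1, 2 and 3 as circle, square and triangle and the mean ± SD beside them. The knockout points lie above all control points for Foxc1, Nr2f2 and Fgf10 and below them for Isl1 and Tbx2, and Fgf8, Fgf10, Isl1 and Tbx1 stay under 1 FPKM in each library.

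The lowest genes were the progenitor genes. Tbx1 and Fgf10 were near 0, defined as a mean under 0.5 FPKM in both groups. Isl1 and Fgf8 were above that in control, at 0.639 and 0.514 FPKM, but had a mean under 0.5 FPKM over the 6 libraries. These 4 genes were thus not part of the test across genes. The other 5 genes (Foxc1, Foxc2, Nr2f2, Tbx2 and Tbx3) were tested. Among 14149 tested genes 1.91% were called higher and 0.466% lower in the knockout (limma, Benjamini-Hochberg adjusted p under 0.05, 2.37% in either direction). Of the 5 tested members 1 was called higher, Foxc1, and 0 lower; at an unadjusted p under 0.05 these counts were 3 and 0, against 8.67% and 7.4% of tested genes. The knockout libraries lay all above the controls for 2 of the 5 (11.0% of tested genes) and all below them for 1 (10.4%). The median log2 change of the 5 was 0.23, and that of all tested genes -0.01. In whole ventricles, fewer cells of a type and less RNA per cell cannot be told apart.

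**Figure D2:**
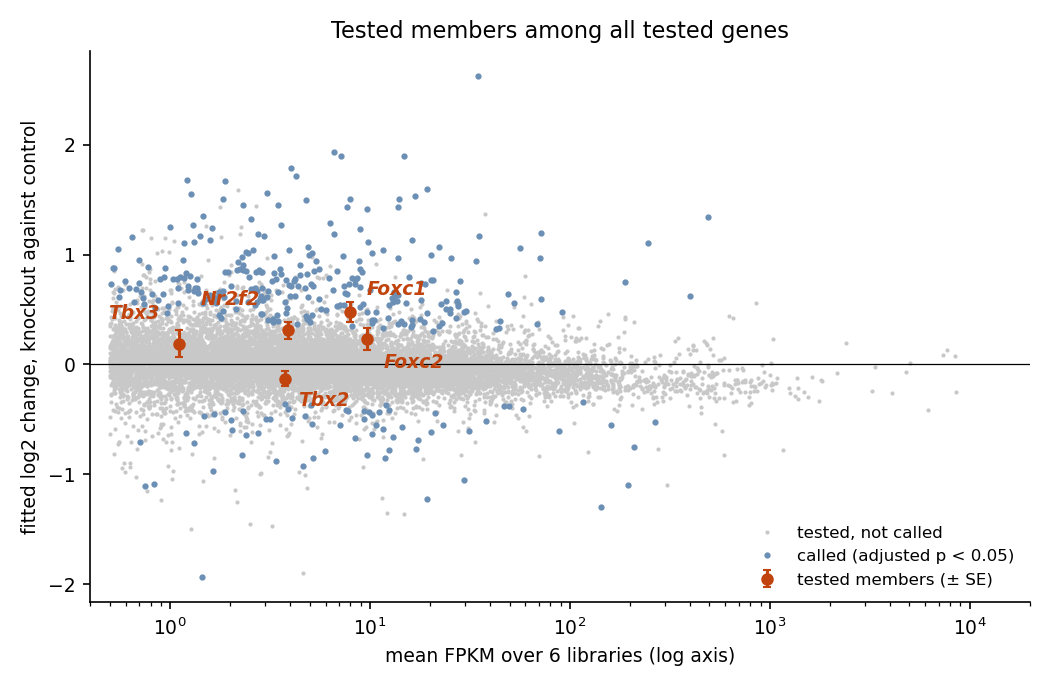
Fitted log2 change, knockout against control (vertical axis), against mean FPKM on a log axis, for the 14149 tested genes (grey), the called genes (blue) and the 5 tested members with their SE (orange). Foxc1, at 0.48, lies among the called genes, while Nr2f2 (0.31), Foxc2 (0.23), Tbx3 (0.19) and Tbx2 (-0.13) lie within the grey cloud.

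Foxc1 rose in the knockout. This forkhead factor is needed for outflow tract and semilunar valve development. It has 5844 exon bases and occupies chromosome 13 from 31806633 to 31812476, plus strand, in mm10 coordinates, with no exon overlap with another gene. It stood at 5.86, 6.46 and 7.07 FPKM in control replicates 1 to 3, and at 8.54, 9.8 and 9.77 FPKM in knockout replicates 1 to 3. The lowest knockout library was above the highest control library, and between 632 and 1112 reads lay behind each value. The means were 6.47 ± 0.607 and 9.37 ± 0.721 FPKM (SD, n = 3 each), the latter 1.45 times the former. On the log2(FPKM + 1) scale the change was 0.48 (SE 0.09, limma adjusted p = 0.0373). The call was close to its threshold: of the 6 refits with a library removed it held in 1, without control replicate 3 (limma adjusted p = 0.0343). Without control replicate 1, control replicate 2 or knockout replicates 1, 2 or 3 the limma adjusted p was 0.114, 0.108, 0.0576, 0.143 or 0.141, with the log2 change between 0.42 and 0.53 over all 6 fits. When genes under the 0.5 FPKM filter were included it was 0.0991.

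Foxc2, the close paralog that acts with Foxc1 in the heart and vessels, was at similar levels in part of the libraries of both groups. Its values were 7.79, 8.39 and 10.3 FPKM in control and 10.1, 10.9 and 10.6 FPKM in knockout replicates 1 to 3. Control replicate 3 lay above knockout replicate 1, while the other controls lay below each knockout library. The log2 change of 0.23 (SE 0.10) did not pass the test (limma adjusted p = 0.309), and without control replicate 3 it was 0.34 (limma adjusted p = 0.0599). Foxc2 lies on chromosome 8 from 121116171 to 121118895 on the plus strand. The summed level of 10 endothelial and endocardial markers (Pecam1, Cdh5, Tek, Kdr, Tie1, Emcn, Npr3, Flt1, Eng and Erg) was likewise high in control replicate 3, at 250 FPKM against 180 and 176 in control replicates 1 and 2, and was 213, 253 and 270 in the knockout libraries. None of the 10 was called by limma, though Npr3 (14.6 ± 2.79 and 21.2 ± 2.42 FPKM, SD, n = 3 each; limma adjusted p = 0.114) and Emcn (12.1 ± 1.88 and 14.5 ± 0.397 FPKM; limma adjusted p = 0.27) were higher in each knockout library. The part of these markers in the Foxc1, Foxc2 and Nr2f2 values was not tested.

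The balance of both forkhead paralogs was compared within each library. The Foxc1 to Foxc2 ratio of FPKM was 0.752, 0.77 and 0.684 in control and 0.848, 0.9 and 0.925 in knockout replicates 1 to 3, so Foxc1 stayed below Foxc2 in each library and was closer to it in each knockout library. On the log2 scale the difference was 0.28, from -0.45 ± 0.09 to -0.17 ± 0.064 (SD, n = 3 each; exact permutation test, two-sided, p = 0.1, the smallest p that 3 against 3 libraries allow). It lay between 0.23 and 0.31 when a library was left out. Around Foxc1, the only tested gene within 100 kb was Gmds, a GDP-mannose dehydratase gene, 7.1 kb away on the other strand. It was at 7.21 ± 0.314 and 8.63 ± 0.264 FPKM (SD, n = 3 each), with knockout libraries above all controls and a limma adjusted p of 0.129. Around Foxc2, Mthfsd was at 2.13 ± 0.115 and 2.01 ± 0.143 FPKM (SD, n = 3 each; limma adjusted p = 0.784). The neighbouring forkhead genes Foxl1 and Foxf1 were under the filter, at means of 0.404 and 0.0851 FPKM over the 6 libraries.

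Among other forkhead genes 1 was called. Of 33 listed 15 were tested, 0 rose and 1 fell (limma; Foxo1 and Foxs1, 1 and 1, at an unadjusted p under 0.05, and 0 and 0 by voom, a limma test on recovered reads), and their median log2 change was 0.01. The gene that fell was Foxs1, a forkhead gene of neural crest derivatives and pericytes. It stood at 3.06, 2.23 and 2.69 FPKM in control and at 1.44, 1.18 and 1.62 FPKM in knockout replicates 1 to 3, with a mean 0.531 times that of the controls (limma adjusted p = 0.0446, log2 change -0.60, SE 0.12). Its call was lost in each of the 6 refits with a library removed, where the limma adjusted p was 0.0552 to 0.148. Rgs5, a pericyte gene among the 7 smooth muscle markers, was at 1.96 ± 0.384 and 0.935 ± 0.296 FPKM (SD, n = 3 each; limma adjusted p = 0.0854) and was lower in each knockout library. The other markers of that list did not share this: Tagln was higher in each knockout library (1.53 ± 0.141 and 1.88 ± 0.164 FPKM; limma adjusted p = 0.358), and the groups overlapped for the other 5, among them Cnn1 (122 ± 28.0 and 154 ± 14.8 FPKM) and Notch3 (2.01 ± 0.385 and 2.3 ± 0.407 FPKM). The part of such cells in the Foxs1 value was not tested.

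**Figure D3:**
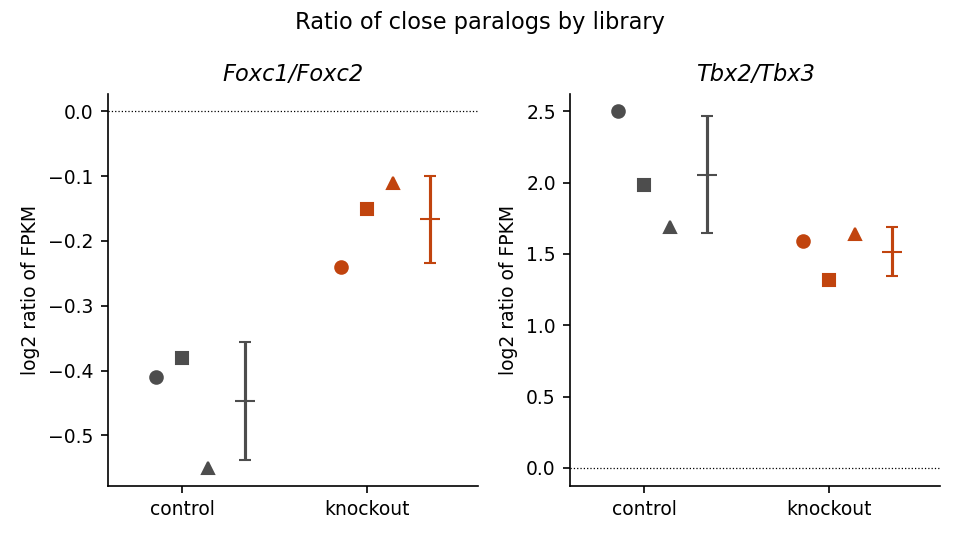
Log2 ratio of FPKM within each library for Foxc1 over Foxc2 (left) and Tbx2 over Tbx3 (right), control in grey and knockout in orange, replicates 1, 2 and 3 as circle, square and triangle, with the mean ± SD; the dotted line marks equal levels. The Foxc ratio is higher in each knockout library and the Tbx2 to Tbx3 ratio lower, with knockout replicate 3 (1.64) close to control replicate 3 (1.69).

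Tbx2 was somewhat lower and Tbx3 somewhat higher in the knockout means, and neither passed the test. Tbx2 stood at 4.17, 3.83 and 3.94 FPKM in control and at 3.42, 3.47 and 3.8 FPKM in knockout replicates 1 to 3. The groups did not overlap, with knockout replicate 3 and control replicate 2 only just apart. The log2 change was -0.13 (SE 0.07, limma adjusted p = 0.436). Tbx3 stood at 0.736, 0.967 and 1.22 FPKM in control and at 1.14, 1.39 and 1.22 FPKM in knockout replicates 1 to 3, and control replicate 3 lay within the knockout range. Its log2 change was 0.19 (SE 0.12, limma adjusted p = 0.464), on 90 to 179 reads per library. Tbx2 lies on chromosome 11 from 85832551 to 85841948 and Tbx3 on chromosome 5 from 119670669 to 119684724, both on the plus strand. The antisense gene Tbx3os1 covers 1.74% of the Tbx3 exon bases.

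Tbx2 exceeded Tbx3 in all 6 libraries, by less in the knockout. The ratio of Tbx2 to Tbx3 FPKM was 5.66, 3.96 and 3.23 in control and 3.01, 2.49 and 3.12 in knockout replicates 1 to 3. The log2 ratio was 2.06 ± 0.41 and 1.52 ± 0.17 (SD, n = 3 each), a difference of -0.54 (exact permutation test, two-sided, p = 0.1). The spread in control was wide, and without control replicate 1 the difference was -0.32. The neighbour Bcas3, 6.49 kb from Tbx2, was at 2.65 ± 0.288 and 2.56 ± 0.354 FPKM (SD, n = 3 each; limma adjusted p = 0.899), and no neighbour of Tbx3 was tested. Of 13 other T-box genes 4 were tested, and 0 rose or fell by limma, at an unadjusted p under 0.05 or by voom. Tbx5, a factor of the left ventricle and atria, was at 8.29 and 9.85 FPKM on average (limma adjusted p = 0.337) and Mga at 2.55 and 2.77 (limma adjusted p = 0.656).

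Genes of the chamber programme, several of them known targets of repression by Tbx2 and Tbx3, were partly higher. Of 10 such genes, all tested, 3 rose and 0 fell (limma; 6 and 1, the latter Kcnj2, at an unadjusted p under 0.05, 5 and 0 by voom), with a median log2 change of 0.36. Results on these genes were known when the list was made, so it is not independent evidence of a direction. Hand1, a factor of the left ventricle, stood at 14.3, 12.9 and 12.3 FPKM in control and 29.0, 24.9 and 27.9 FPKM in knockout replicates 1 to 3 (limma adjusted p = 0.00208). Cited1, a transcriptional coregulator, stood at 130, 137 and 153 FPKM in control and 241, 239 and 227 FPKM in knockout (limma adjusted p = 0.00582). The natriuretic peptide gene Nppa stood at 220, 247 and 375 FPKM in control and 774, 729 and 597 FPKM in knockout (limma adjusted p = 0.0161), with 61.5% of its exon bases under Gm13054. The knockout libraries of all 3 genes lay above the controls. In the 6 refits with a library removed Hand1 and Cited1 were called throughout and Nppa in 3, with a limma adjusted p up to 0.073. By voom, Gja1 and Smpx, named after their values were seen, were called as well. Gja1 was at 23.7 ± 3.09 and 32.5 ± 3.23 FPKM and Smpx at 182 ± 21.0 and 238 ± 14.4 FPKM (SD, n = 3 each; limma adjusted p = 0.093 and 0.114).

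Genes of the atrioventricular canal and conduction tissue, where Tbx2 and Tbx3 act, had 0 of 15 tested members called either way (limma; 3 higher, Msx2, Hcn4 and Rspo3, and 1 lower, Hey2, at an unadjusted p under 0.05, 0 and 0 by voom). The median log2 change was 0.06. Genes given only by name at an unadjusted p, here and for other lists, were picked after their values were seen. Rspo3, a secreted activator of Wnt signalling, was at 3.99 ± 0.384 and 5.66 ± 0.608 FPKM (SD, n = 3 each; limma adjusted p = 0.0797), with 13.1% of its exon bases under Gm48159. The homeobox gene Msx2 was at 1.74 ± 0.46 and 2.83 ± 0.236 FPKM (SD, n = 3 each; limma adjusted p = 0.118). The knockout libraries of both lay above all controls.

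Nr2f2 was higher in each knockout library without passing the test. It stood at 3.3, 3.24 and 3.59 FPKM in control and at 4.28, 4.76 and 4.19 FPKM in knockout replicates 1 to 3, on 497 to 797 reads per library. The gap between the groups was wider than the range within either. The knockout mean was 1.31 times that of the controls and the log2 change 0.31 (SE 0.08, limma adjusted p = 0.102). Tested by voom on the recovered reads, an alternative chosen after seeing the data in which 3.61% of genes were called, its adjusted p was 0.0414, and Foxc1 and Nr2f2 were then the called members. The gene spans 70351944 to 70366735 of chromosome 7, minus strand, and the antisense gene B130024G19Rik covers 7.46% of its exon bases. That gene was at a mean of 0.0919 FPKM. Nr2f2 exceeded Tbx2 in each knockout library and lay below it in each control library.

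**Figure D4:**
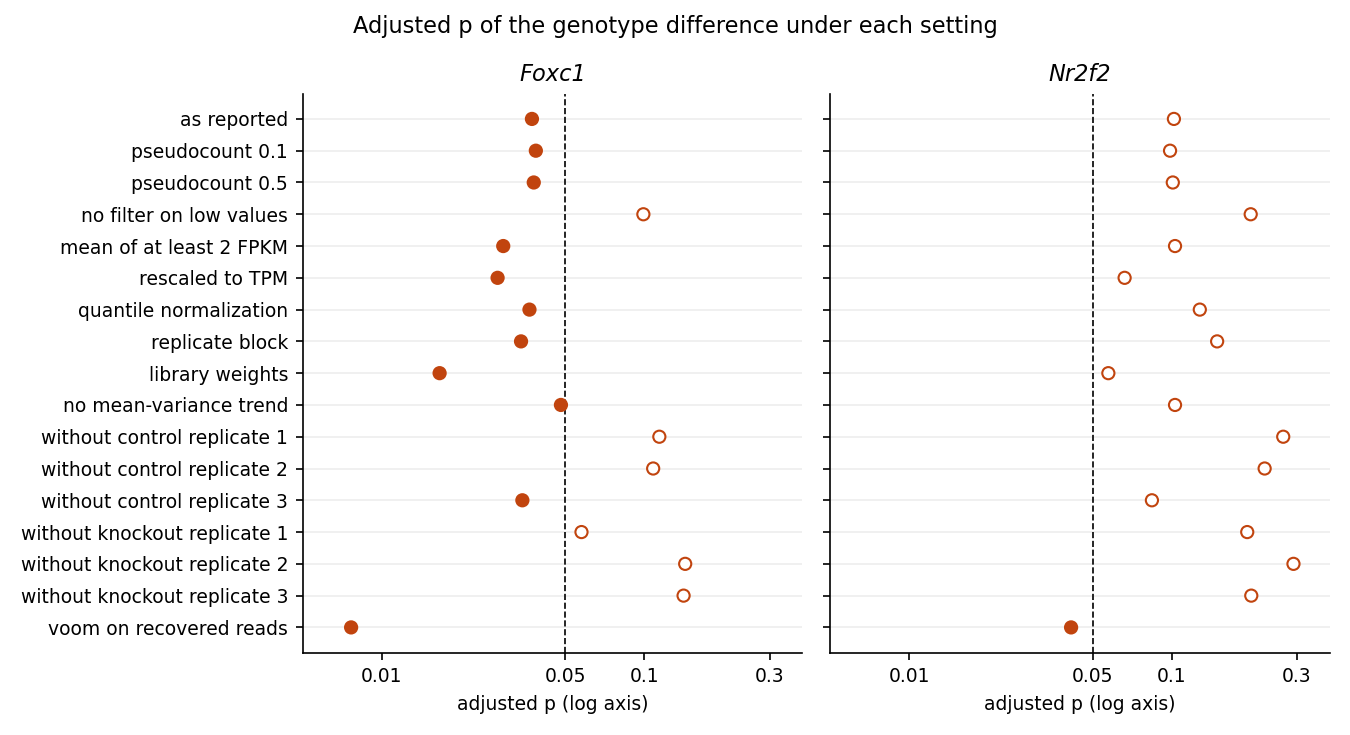
Adjusted p of the genotype difference (horizontal log axis) for Foxc1 and Nr2f2 under the reported fit and 16 alternatives, with filled points below the dashed threshold of 0.05. Foxc1 was called in 10 of the 16 alternatives and Nr2f2 in 1, the voom test on recovered reads.

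Atrial genes, among which Nr2f2 is a known regulator, were called in part. Of 12 tested genes 2 rose and 0 fell (limma; 3 and 1, adding Bmp10 and Sln, at an unadjusted p under 0.05, 2 and 0 by voom), with a median log2 change of 0.11. Both encode subunits of an atrial potassium channel. Kcnj3 went from 1.15 ± 0.249 to 2.25 ± 0.0606 FPKM (limma adjusted p = 0.0302), with 31.1% of its exon bases under Gm26794, and Kcnj5 from a mean of 8.93 to 12.1 FPKM (limma adjusted p = 0.0402). Of the 6 refits with a library removed each kept its call in 1, Kcnj3 without control replicate 2 (limma adjusted p = 0.0364, up to 0.111 in the others) and Kcnj5 without control replicate 3 (0.0485, up to 0.15). The 5 atrial markers Sln, Myl4, Nr2f1, Kcna5 and Stard10 summed to 636 to 696 FPKM in control and 611 to 667 FPKM in knockout, and none was called. Most of each sum was Myl4, at 603 to 666 FPKM in control and 585 to 637 FPKM in knockout. Myl7, among the 12 atrial genes, averaged 2160 FPKM over the 6 libraries, and Bmp10 is also a gene of trabeculation. With Myl4 and Myl7 this high in tissue labelled as ventricles, the list and the sum do not measure atrial tissue alone. Sln was lower in each knockout library (7.67 ± 1.57 and 5.42 ± 0.716 FPKM, SD, n = 3 each; limma adjusted p = 0.187). The groups overlapped for Myl4, Nr2f1, Kcna5 and Stard10. Among 11 ventricular genes 3 rose and 0 fell (limma; 4 and 1, adding Irx3 and Hey2, at an unadjusted p under 0.05, 3 and 0 by voom; median log2 change 0.24): Hand1 and the Iroquois factors Irx6 (1.86 to 3.56 FPKM, limma adjusted p = 0.0118, 4.51% of exon bases under Gm45505) and Irx5 (5.8 to 9.52 FPKM, limma adjusted p = 0.0266). With a library removed Irx6 kept its call in 4 of 6 refits and Irx5 in 1, without control replicate 3. The related nuclear receptors Nr2f6 and Nr2c1 were at 14.8 and 3.45 FPKM in control and 16.4 and 3.89 FPKM in knockout (limma adjusted p = 0.312 and 0.438), and 54.4% of the Nr2f6 exon bases lie under Ocel1. Of 15 LIM homeodomain and COUP-TF relatives 4 were tested, with 0 called by limma, at an unadjusted p under 0.05 or by voom, and all 11 listed LIM homeodomain genes were under the filter.

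Isl1 was low in all libraries and lower in the knockout ones. This factor marks second heart field progenitors and also neurons of cardiac ganglia. It stood at 0.452, 0.653 and 0.811 FPKM in control replicates 1 to 3, from 33, 46 and 62 reads, and at 0.238, 0.143 and 0.41 FPKM in knockout replicates 1 to 3, from 17, 11 and 29 reads. All 6 values were above the 3-read floor of the gene, 0.039 to 0.0426 FPKM. The groups did not overlap, but the nearest libraries were within counting error of each other: the exact 95% Poisson interval was 0.311 to 0.634 FPKM in control replicate 1 and 0.275 to 0.589 FPKM in knockout replicate 3. These intervals cover counting error only. The ratio of the means, 0.639 ± 0.18 and 0.264 ± 0.135 FPKM (SD, n = 3 each), was 0.413 (exact permutation test, two-sided, p = 0.1). In fits that kept low genes Isl1 was not called: its adjusted p was 0.289 by limma with no filter and 0.102 by voom on genes with at least 30 reads in all. Its locus is on chromosome 13, minus strand, from 116298281 to 116309689. Of 11 neural crest and cardiac ganglion markers 4 were tested and none was called. Among the untested ganglion genes the direction of the means was mixed. Dbh was lower in each knockout library (0.288 ± 0.113 and 0.0891 ± 0.0606 FPKM, SD, n = 3 each), while Th (0.144 ± 0.118 and 0.257 ± 0.141 FPKM) and Phox2a (0.0623 ± 0.0178 and 0.15 ± 0.122 FPKM) had higher knockout means with groups that overlapped. Sox10 was at 5.24 FPKM in knockout replicate 1 and at most 0.611 FPKM in the others. The part of ganglion cells in the Isl1 values was not tested.

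Tbx1, a gene of the pharyngeal part of the second heart field, was at or near the floor. It stood at 0.0308, 0.0639 and 0.103 FPKM in control and at 0.0944, 0.0293 and 0.0159 FPKM in knockout replicates 1 to 3. Behind these were 1 to 7 reads per library, 13 in control and 9 in knockout in all, and the 3-read floor was 0.044 to 0.0479 FPKM. Control replicate 1 and knockout replicates 2 and 3 were below it, so that a difference was not detectable at this depth. The gene spans 18580979 to 18590671 of chromosome 16, minus strand.

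Both ligands were low as well and differed in how their libraries fell. Fgf8, a secreted growth factor of the anterior field, stood at 0.763, 0.167 and 0.614 FPKM in control and at 0.533, 0.153 and 0.29 FPKM in knockout replicates 1 to 3, on 4 to 19 reads per library. Replicate 2 was lowest in both groups and the groups overlapped (exact permutation test, two-sided, p = 0.4). Its locus is on chromosome 19, minus strand, from 45736798 to 45742915. Fgf10, a mesenchymal growth factor of the same field, stood at 0.141, 0.0855 and 0.0901 FPKM in control, from 12, 7 and 8 reads, and at 0.216, 0.325 and 0.426 FPKM in knockout replicates 1 to 3, from 18, 29 and 35 reads. Each knockout library lay above each control library. The nearest pair was within counting error, with exact 95% Poisson intervals of 0.073 to 0.247 FPKM in control replicate 1 and 0.128 to 0.342 FPKM in knockout replicate 1. The ratio of the means, 0.106 ± 0.031 and 0.322 ± 0.105 FPKM (SD, n = 3 each), was 3.05 (exact permutation test, two-sided, p = 0.1). Fgf10 is also a gene of lung mesenchyme, and of 10 lung and foregut markers the 2 that were tested, Krt8 and Epcam, were both called higher by limma. Krt8 and Epcam are genes of epithelia in general and do not single out lung. Of the others Nkx2-1, Foxa1 and Shh had no reads in any library. Sox2 (0.106 ± 0.0539 and 0.343 ± 0.0753 FPKM, SD, n = 3 each) was higher in each knockout library. So was Foxa2 (listed at 0 in the controls, 0.0467 to 0.0945 FPKM in the knockout), on only a few reads per library. The groups overlapped for Cdh1 (0.0505 ± 0.0477 and 0.0422 ± 0.0419 FPKM), Sftpb (0.0902 ± 0.0836 and 0.194 ± 0.0519 FPKM) and Sftpc. The part of such tissue in the Fgf10 values was not tested. With low genes kept, the adjusted p of Fgf10 was 0.223 by limma and 0.0988 by voom. Fgf10 lies on chromosome 13 from 118669791 to 118792115 on the plus strand, and Gm16263, an antisense gene listed at 0 in all libraries, covers 2.67% of its exon bases. Among 6145 genes with a mean of 0.05 to 0.5 FPKM, 13.0% had groups that did not overlap, as Isl1 and Fgf10 did among the 4 low members.

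Of 22 FGF receptors, feedback inhibitors and target genes 19 were tested, and 0 were called in either direction (limma; 5 higher, Spry4, Spred1, Spred3, Etv5 and Dusp6, and 1 lower, Spry2, at an unadjusted p under 0.05, 0 and 0 by voom). Their median log2 change was 0.09. The transcription factor gene Etv5 stood at 5.85, 5.78 and 5.04 FPKM in control and at 6.85, 7.47 and 7.26 FPKM in knockout replicates 1 to 3 (limma adjusted p = 0.0857). The phosphatase gene Dusp6, which restrains ERK signalling, stood at 19.2, 16.9 and 18.1 FPKM in control and at 20.8, 21.5 and 22.7 FPKM in knockout (limma adjusted p = 0.132). Both are transcribed in response to FGF in many tissues. The receptor genes Fgfr1 and Fgfr2, named outside the rule for named genes, were at 4.33 and 1.6 FPKM in control and 4.46 and 1.95 FPKM in knockout (limma adjusted p = 0.856 and 0.444), with 1.66% and 3.04% of their exon bases under Gm16159 and Ctbp2.

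Of 38 other second heart field partners and targets, 30 were tested and 0 were called (limma; 6 higher and 1 lower at an unadjusted p under 0.05, 0 and 0 by voom), with a median log2 change of -0.02. Msx2 is given above, and Smyd1, a muscle methyltransferase gene, stood at 108, 110 and 96.9 FPKM in control and 124, 126 and 122 FPKM in knockout replicates 1 to 3 (limma adjusted p = 0.153). The 8 untested genes include Six2 and Eya1, which like Isl1 and Tbx1 are known from undifferentiated progenitors, and Shh, Gli1, Prdm1, Fgf3 and Fgf15.

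The labelled tissue was checked against markers of its own and of adjoining tissues. The 7 cardiomyocyte markers summed to 12200 to 16100 FPKM in control and 13500 to 15000 FPKM in knockout, and the ventricular light chain gene Myl2 was at 3100 to 3570 FPKM over all libraries. Cushion mesenchyme markers summed to 103 to 136 and 98.5 to 113 FPKM, epicardial markers to 215 to 257 and 238 to 270 FPKM, smooth muscle markers to 856 to 1420 and 1070 to 1250 FPKM, and neural crest and ganglion markers to 27.2 to 45.1 and 43.7 to 49.6 FPKM. None of these markers that was tested was called by limma. The 7 liver markers summed to 2.71 to 5.59 and 4.95 to 6.43 FPKM, with 0 of 2 tested called, and Fgb and Serpina1a had no reads. Lung and foregut markers summed to 12.8 to 15.3 FPKM in control and 21.6 to 29.3 FPKM in knockout, of which Krt8 averaged 13.1 and 22.8 FPKM. Skeletal and pharyngeal muscle markers summed to 9.47 to 12.4 FPKM in control and 7.08 to 7.71 FPKM in knockout, mostly Tcf15, with 0 of 3 tested called and Myf5, Pax3 and Pax7 at no more than 3 reads in any library. Within that list only Tcf15 was lower in each knockout library (9.44 ± 1.51 and 6.3 ± 0.275 FPKM, SD, n = 3 each; limma adjusted p = 0.0566). The groups overlapped for each of the other markers. Isl1 and Tbx2 were also lower in each knockout library, and the part of such tissue in the Isl1 and Tbx2 values was not tested.

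Genes whose levels ran most alike to a tested member over the 6 libraries are given as a description, since 6 libraries and 9771 candidate protein-coding genes give high correlations readily. For Foxc1, 347 candidates had a Pearson correlation of log2(FPKM + 1) above 0.9, and the highest were Fam174b (0.999) and Sfmbt1 (0.998). For Nr2f2 Parp9 was among them (0.995), for Foxc2 they were Ednrb (0.994) and Shisa5 (0.993), for Tbx2 Mrpl47 (0.987) and Manbal (0.986), and for Tbx3 Bahd1 (0.996) and 2010300C02Rik (0.996).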

How the data were processed

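RNA was taken from E12.5 mouse heart ventricles, 3 control and 3 LSD1 conditional knockout samples, grouped and numbered by their descriptions. The labels' protocols name TRIzol extraction and a NEBNext Ultra RNA kit, and alignment to mm10 with HISAT2 2.0.5 and counting with featureCounts 1.5.0-p3 are listed in the submitters' processing notes, beside CASAVA and fastp. For annotation and strand setting the entry is not given in the sources used here. From these steps the authors deposited FPKM values for 54532 Ensembl IDs. GENCODE M21 (GRCm38) gave names, coordinates and exon lengths for 54495 of them, and the ID with the highest mean kept a shared symbol.

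Each FPKM value was multiplied by exon length and divided by the worth of 1 read in that library. Of genes below 30 reads, 98.1% to 98.5% came within 0.02 of a whole number. These recovered reads gave the depth, the 3-read floors and exact 95% Poisson intervals. The 14149 genes averaging 0.5 FPKM or more entered limma 3.58.1 (R 4.3.3) as log2(FPKM + 1) values, tested two-sided, modelling genotype alone and letting the variance follow the mean, and p-values were Benjamini-Hochberg adjusted over all of them. The added 1 FPKM shrinks the fold change of low genes. The procedure was also run on simulated reads, with the same spread setting for all genes and changes only in genes of at least 1 FPKM. The outcome is not reported here, and the run does not cover the low members. Single levels and ratios were compared by exact permutation tests (Python 3.11.15). Markers of other cell types and 9 gene lists were read from the same fit, with no set test. The lists covered second heart field partners, FGF receptors and feedback genes, T-box, forkhead, LIM homeodomain and COUP-TF relatives, atrioventricular canal, chamber, atrial and ventricular genes.

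Named were the members, up to 4 called genes of each list (with none called, the 2 lowest in p), up to 3 tested neighbours within 100 kb of each tested member, and for each tested member the 2 protein-coding genes of mean at least 2 FPKM most like it. The members and lists were chosen with earlier results of these data known. No pair of libraries agreed within sampling noise (median chi-square per gene at least 1.73, against 0.455 for noise), and each was counted as 1 replicate. This does not show that they came from separate embryos, since technical steps can also add spread. Alternatives were other pseudocounts, filters, scalings, weights, a replicate block, no trend, each library left out and, chosen after seeing the data, voom. The kit named does not mark strand, so overlapping antisense genes cannot be told apart. Protein sequences were not used here. A few genes that the naming rule or the lists cover are not reported here.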

Additional observations from a re-analysis of the deposited data

How the results depend on the processing

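Over the alternatives the direction of Foxc1, Foxc2, Tbx2, Tbx3 and Nr2f2 did not change. The number of members called higher was 1 as reported, 0 with no filter on low values, 2 by voom and 0 to 1 when a library was left out, and the number lower was 0 throughout. Genes called higher were 270, against 110 with no filter, 369 after rescaling to TPM, 354 with library weights, 409 by voom and 111 to 273 with a library left out. The median log2 change of all tested genes was -0.01 as reported and 0.06 after rescaling to TPM. Genes called lower were 66, against 12 with no filter, 40 after rescaling to TPM, 112 with library weights, 102 by voom and 23 to 108 with a library left out. The fit with no filter covered 25956 genes. What caused these differences in the number of calls was not tested.

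Among the lists, leaving out a library gave 0 to 1 higher and 0 to 1 lower calls for second heart field partners, 0 to 1 lower for atrioventricular canal genes, 0 to 1 lower for chamber genes and 1 to 3 higher and 0 to 1 lower for ventricular genes. It gave 0 lower for forkhead genes and 0 to 1 higher for atrial genes. With no filter forkhead genes had 0 lower, atrial genes 0 higher and ventricular genes 1 higher. Rescaling to TPM gave 1 higher atrioventricular canal gene and 5 higher chamber genes. By voom 5 chamber genes were higher and 0 forkhead genes lower. Atrial genes had 1 higher at a mean of at least 2 FPKM and 1 with no trend. The Bcas3 change turned from -0.04 to 0.03 after rescaling to TPM, 0.02 without control replicate 2 and 0.04 without knockout replicate 1, and lay between -0.11 and 0.04 with a library left out.

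The labels number replicates 1 to 3 in both groups, and no label says that a number marks a shared litter. Deviations of same-numbered libraries from their group means had correlations of 0, 0.14 and 0.16, and those of differently numbered libraries -0.19 to 0.08. The pairs of replicates 2 and 3 thus stood above each differently numbered pair and that of replicate 1 did not, so a pairing cannot be told from these values. With a replicate block 220 genes were higher and 64 lower, Foxc1 stayed called (limma adjusted p = 0.0339), atrial genes had 0 higher and Nppa lost its call (limma adjusted p = 0.0554). Depth limits Tbx1 and Fgf8 most, with 1 to 7 and 4 to 19 reads per library.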
